A study of Mus musculus with 15 samples.

Results

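The genes described here are 9 genes of DNA methylation and repeat silencing, out of 34432 genes listed in each of 2 tables of normalized counts from CT26 cells, a mouse colon carcinoma line. They were taken by name: the DNA methyltransferases Dnmt1, Dnmt3a and Dnmt3b, the maintenance cofactor Uhrf1, the methylcytosine oxidases Tet1, Tet2 and Tet3, and the silencing proteins Trim28 and Setdb1. As background, Dnmt3a and Dnmt3b place new methyl groups on CpG sites, while Uhrf1 recognizes the half-methylated sites left behind a replication fork and brings Dnmt1 to copy the pattern onto the new strand. Tet enzymes oxidize methylcytosine on the way to its removal. Trim28, also called KAP1, is recruited to endogenous retroviruses and imprinted regions by KRAB zinc finger proteins, and brings Setdb1, which methylates lysine 9 of histone H3. Loss of these layers is known to let repeats be transcribed in many cell types, and their RNA and DNA can be sensed by the innate immune system, the branch of immunity that the study of PRMT1, an arginine methyltransferase, was about.

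All groups were CT26 with no other allele named, and each held 3 libraries. In the knockdown experiment, cells carrying a control hairpin (shControl) were set against cells carrying a hairpin to Prmt1 (shPrmt1) that is induced by doxycycline (DOX), given for 3 days. Whether DOX was also added to shControl cells is not in the labels, and the knockdown came from a single stable line. In the inhibitor experiment, cells were given vehicle, MS023 or GSK3368715, both small-molecule inhibitors of type I arginine methyltransferases, at 6 µM for 48 hours. The deposited values are gene counts divided by size factors, set separately for each experiment, so levels are compared only within an experiment. The labels call the 3 libraries of a group biological replicates without saying that they came from separate cultures, so that p-values measure the spread between these libraries. Neither DNA methylation, protein nor repeat RNA was part of these tables.

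Between 17284091 and 29233738 reads fell on genes in a library of the knockdown experiment, and between 40119305 and 93697833 in a library of the inhibitor experiment. Prmt1 itself had 5601, 5717 and 5620 normalized counts in shControl and 669, 761 and 683 in shPrmt1, where its mean was 12.5% of that of shControl. Of 10 markers of colon epithelium, 2 reached a mean of 10 normalized counts in shControl (Krt18 and Krt20, at 572 and 178) and 4 in vehicle (these with Cdx2 and Lgals4). Epcam and Cdx1 were listed at 0 in every library of both controls, and Cdh1, Krt19 and Vil1 in every shControl library, with means of no more than 2.45 in vehicle. All 8 mesenchymal markers were at 10 normalized counts or more in both controls. Some of these markers differed between treated libraries and their controls. The summed epithelial markers ran from 729 to 812 normalized counts in shControl and from 544 to 670 in shPrmt1, and from 1286 to 1449 in vehicle, 1789 to 1879 in MS023 and 1450 to 1617 in GSK3368715. In the knockdown Krt18 was called lower, and of the mesenchymal markers Fn1 and Col1a1 higher and S100a4 lower, while under MS023 Krt8 and Krt18 were called higher and S100a4 and Col1a1 lower, and under GSK3368715 Krt18 higher, by limma at an adjusted p under 0.05. Krt8 was low in vehicle, with a mean of 7.43 normalized counts and the lowest library at 1.65. Testing asked for 10 normalized counts in 3 or more libraries, which vehicle alone did not give for Krt8. It was thus tested only because treated libraries reached that level, and its call is limited by this. Of the epithelial markers tested, 1 of 2 was called in the knockdown, 2 of 5 under MS023 (Krt8 among them) and 1 of 5 under GSK3368715. Of the 8 mesenchymal markers 37.5%, 25% and 0% were called, beside 14.7%, 27.9% and 9.64% of all genes tested. The part of these markers in the results on the 9 genes and their partners was not tested. Of 8 markers of blood and endothelial cells, Pecam1 alone reached a mean of 10 normalized counts in shControl and in vehicle. In bulk RNA, fewer cells of a type and less RNA per cell cannot be told apart.

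The starts of these genes are rich in CpG, the letters that the enzymes themselves act on, and a pair of them carry a sequence that E2F factors, the activators of S phase genes, are known to bind. Of RefSeq promoter sequences (GRCm38.p6), all 9 genes had at least 1, and 14 windows of the 250 bases before an annotated start were found for them. At least 10 CpG were held by 12 of the 14, beside 37.8% of the 32851 windows of all genes, and the window with most CpG of each gene had 13 (Setdb1) to 51 (Tet2), beside a median of 6 over 27025 genes. The letters TTTCCCGC, TTTGGCGC, TTTCGCGC or TTTGCCGC were searched on both strands as E2F-like and were found in 2 of the 14 windows, 1 of Uhrf1 and 1 of Dnmt1, and in 1.86% of all windows. Each of these strings holds a CpG, and windows of a like CpG number were not compared. A match of letters is a description and not a binding site. The stretches below are shown because they hold the shared letters (in capitals) or the highest CpG number: the Uhrf1 window at chr17:56304063-56304312, plus strand, where the capitals lie 185 to 178 bases before the start; 30 bases of the Dnmt1 window at chr9:20952824-20952853, minus strand, where the same letters stand reversed and lie inside an exon annotated from another start of Dnmt1; and the Tet2 window at chr3:133544391-133544640, minus strand, which has no match.
Uhrf1: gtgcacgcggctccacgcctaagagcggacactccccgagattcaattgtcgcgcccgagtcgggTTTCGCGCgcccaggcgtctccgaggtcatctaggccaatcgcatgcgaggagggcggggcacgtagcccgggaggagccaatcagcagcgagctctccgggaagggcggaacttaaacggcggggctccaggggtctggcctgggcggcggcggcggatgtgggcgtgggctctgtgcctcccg
Dnmt1: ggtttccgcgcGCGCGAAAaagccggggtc
Tet2: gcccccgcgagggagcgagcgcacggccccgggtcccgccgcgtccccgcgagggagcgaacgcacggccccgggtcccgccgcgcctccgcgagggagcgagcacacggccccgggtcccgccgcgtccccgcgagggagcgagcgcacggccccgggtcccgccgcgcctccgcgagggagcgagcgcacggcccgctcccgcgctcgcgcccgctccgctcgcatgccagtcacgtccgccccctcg

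To compare the genes with each other, normalized counts were divided by the length in kilobases of the longest coding transcript. On this scale Trim28 was the highest in every group, at 2283 ± 111 (SD, n = 3) in shControl and 6022 ± 312 in vehicle, followed by Uhrf1 (1512 ± 24.1 and 3403 ± 275) and Dnmt1 (964 ± 21.1 and 2720 ± 223). Setdb1 came next, at 457 ± 7.34 in shControl and 1297 ± 50.9 in vehicle, and then Tet3, at 132 ± 1.7 and 353 ± 42.1. The maintenance pair and the repeat silencing pair thus stood above all the other members, and the de novo methyltransferases were low: Dnmt3a had 67.6 ± 5.26 per kilobase in shControl and 174 ± 16.3 in vehicle, and Dnmt3b 13.1 ± 0.886 and 35.5 ± 3.54. Tet2 stood below Dnmt3a in shControl (54.6 ± 2.02) and above it in vehicle (254 ± 38.5). Neighbours in this order did not overlap between libraries of the same group, apart from Dnmt3a and Tet2 in shPrmt1, where their ranges met. Tet1 was at the bottom of every group, with 0, 2 and 3 reads in the shControl libraries.

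None of the 9 genes was called as changed in any of the 4 comparisons. The log2 of the normalized count + 1 was tested by limma with Benjamini-Hochberg adjustment over all genes tested and a threshold of 0.05. The added 1 shrinks the fold changes of genes at low counts. In shPrmt1 against shControl 0 of the 8 members tested were called, where 14.7% of the 11485 genes tested were, and 1 (Uhrf1) had an unadjusted p under 0.05. In MS023 against vehicle it was 0 of 9 where 27.9% of 13014 genes were called, in GSK3368715 against vehicle 0 of 9 where 9.64% were, and in GSK3368715 against MS023 0 of 9 where 0.515% were, with no member at an unadjusted p under 0.05 in the last 3. edgeR on the recovered reads called 0 members in each comparison, and DESeq2 called 1 (Uhrf1) in the knockdown and 0 in the others. The median absolute log2 fold change of the members was 0.08, 0.04 and 0.07 in the knockdown, under MS023 and under GSK3368715, beside 0.17, 0.18 and 0.13 over all genes tested. All genes tested include genes near 10 normalized counts, and genes of a like level were not compared. MS023 and GSK3368715 share the 3 vehicle libraries, so that their values are given side by side and not as separate evidence.

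**Figure D1:**
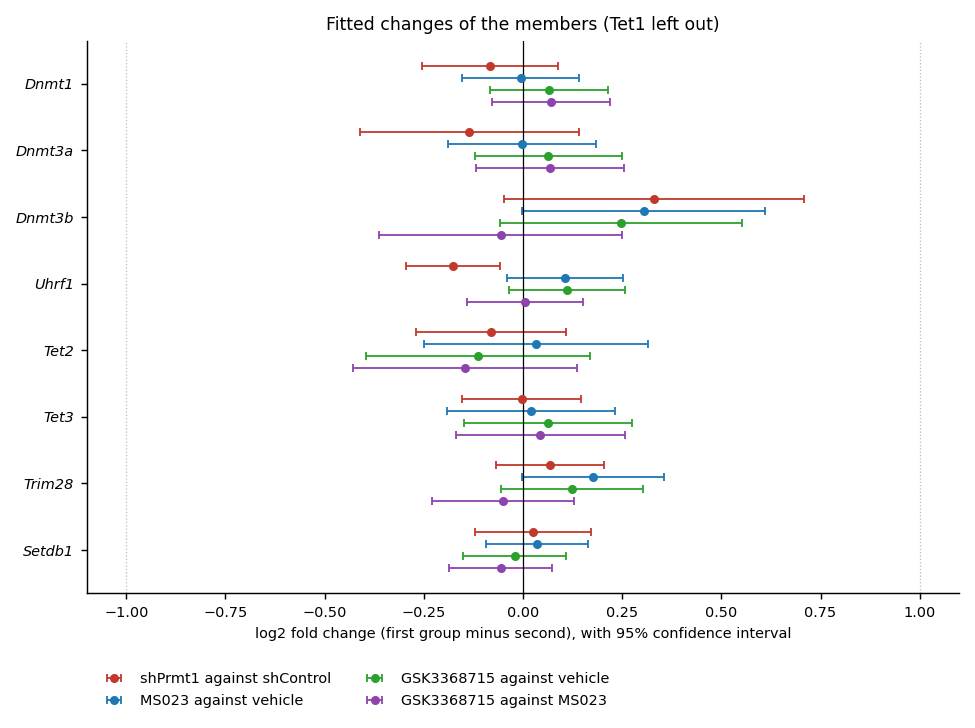
Log2 fold change (x axis, first group minus second) of the 8 members other than Tet1, with 95% confidence intervals from limma, in the knockdown, under each inhibitor and between the inhibitors. Apart from Uhrf1 in the knockdown (-0.18), every interval includes 0, and none reaches 1 in either direction.

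Uhrf1, which ties methylation to replication, was the member closest to the threshold. Uhrf1 (chromosome 17 from 56303321 to 56323486, plus strand, mm10) had 5516, 5399 and 5347 normalized counts in shControl and 4872, 4756 and 4751 in shPrmt1. All shPrmt1 libraries lay below all shControl libraries, and the spread within each group was small, with means of 5421 ± 86.4 and 4793 ± 68.3 (SD, n = 3). The log2 fold change was -0.18 (95% confidence interval -0.30 to -0.06, limma adjusted p = 0.0545), a level of 0.884 times the control. The adjusted p lay on both sides of 0.05 over the alternatives, from 0.0182 with DESeq2 to 0.212 without the first shControl library, while the fold change stayed between -0.19 and -0.145 on the log2 scale. Libraries that do not overlap between the groups were seen for 38.0% of all genes tested in the knockdown, and for 2 of the 8 members. Under the inhibitors Uhrf1 had 11505, 13332 and 11776 normalized counts in vehicle, 13665, 12589 and 13089 in MS023 and 13662, 12402 and 13459 in GSK3368715. These groups overlapped, and the log2 fold changes were 0.11 for MS023 (interval -0.04 to 0.25, adjusted p = 0.263) and 0.11 for GSK3368715 (-0.03 to 0.26, adjusted p = 0.319). A near-identical pseudogene, Gm5648, matched 44.3% of the Uhrf1 transcript at 98.3% identity, and had a mean of 1.20 normalized counts in shControl and of 0 in vehicle.

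Dnmt1, the maintenance methyltransferase (chromosome 9 from 20907209 to 20959888, minus strand), was measured at 5781, 5533 and 5669 normalized counts in shControl and 5493, 4810 and 5772 in shPrmt1, a log2 fold change of -0.08 (interval -0.25 to 0.09). The second shPrmt1 library was the low one, and the groups overlapped. In the inhibitor experiment it had 14620, 17233 and 16044 in vehicle, 15400, 15848 and 16357 in MS023 and 16884, 15639 and 17536 in GSK3368715. The MS023 libraries lay inside the range of vehicle. The log2 fold changes were -0.01 (interval -0.15 to 0.14) and 0.07 (-0.08 to 0.21), so that a change of Dnmt1 of more than 1.16-fold in either direction lay outside the interval of each inhibitor.

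S phase genes are given beside Uhrf1 and Dnmt1, whose transcripts are known to rise as cells enter S phase. Of 20 such genes, 0 were called higher and 3 lower in shPrmt1, or 15% beside 14.7% of all genes tested: E2f1, which activates S phase genes (log2 fold change -0.73, adjusted p = 0.00939), the thymidylate synthase Tyms (-0.46, adjusted p = 0.00346) and the clamp loader subunit Rfc4 (-0.35, adjusted p = 0.025), with limma. The other 17 were not called, and 3 of the 20 had a positive fold change, with a median of -0.07, beside -0.0036 over all genes tested. Under MS023 the list split, with 4 called higher (Mcm3, Mcm6, Cdc6 and Cdt1, subunits or loaders of the replicative helicase) and 4 lower (Tyms, Ccne2, E2f1 and Rfc4), or 40% beside 27.9% of all genes tested. Under GSK3368715 0 were called in either direction, beside 9.64%, while edgeR called 0 and DESeq2 2 higher and 2 lower. In GSK3368715 against MS023 0 of the 20 were called by limma, beside 0.515% of all genes tested. Without the second vehicle library 7 were called higher and 3 lower under MS023, and 3 higher under GSK3368715. Over all libraries left out in turn the counts ran from 3 to 7 higher and 3 to 5 lower under MS023, from 0 to 3 higher and 0 to 1 lower under GSK3368715, and from 2 to 4 lower in the knockdown. The call of Ccne2 under MS023 was lost without the second or the third vehicle library or the second or the third MS023 library, at an adjusted p of up to 0.102. E2f1 had 3844, 4104 and 3859 normalized counts in vehicle, 2975, 3150 and 3352 in MS023 and 3467, 2997 and 3492 in GSK3368715. E2f1 was not called under GSK3368715, and Uhrf1 was not called under either inhibitor. The part of these genes in the values of Uhrf1 was not tested. The calls of E2f1 and Tyms in the knockdown held in all 16 alternatives, and that of Rfc4 was lost when libraries were left out, at an adjusted p of up to 0.12. Rfc4 shares 194 exon bases with Eif4a2 on the opposite strand, and Ccne2 609 with Ints8.

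The de novo enzymes were Dnmt3a (chromosome 12 from 3806007 to 3914443, plus strand) and Dnmt3b (chromosome 2 from 153649450 to 153687730, plus strand). Dnmt3b had 52.8, 60.5 and 56.4 normalized counts in shControl, from 60, 84 and 51 reads, and 75.4, 61.8 and 77.6 in shPrmt1, from 66, 51 and 76 reads. All shPrmt1 libraries lay above shControl, the second by a small margin. It had 136, 163 and 162 in vehicle, 196, 166 and 206 in MS023 and 206, 173 and 168 in GSK3368715, and again no treated library lay within the range of its controls. The log2 fold changes were 0.33 in the knockdown (interval -0.05 to 0.71, adjusted p = 0.214), 0.30 under MS023 (-0.0016 to 0.61, adjusted p = 0.126) and 0.25 under GSK3368715 (-0.06 to 0.55, adjusted p = 0.29), none past the threshold. Libraries not overlapping with the controls were seen for 44.5% of all genes tested under MS023 and for 27.7% under GSK3368715, for 2 members (Dnmt3b and Trim28) and 1 member (Dnmt3b) respectively. Dnmt3a had 631, 713 and 619 in shControl and 521, 572 and 705 in shPrmt1, a log2 fold change of -0.13 (interval -0.41 to 0.14), with overlapping groups. Under the inhibitors it ranged from 1501 to 1795 in vehicle, 1578 to 1783 in MS023 and 1627 to 1858 in GSK3368715, with log2 fold changes of -0.0030 (-0.19 to 0.18) and 0.06 (-0.12 to 0.25). The antisense gene Dnmt3aos shares 133 exon bases with Dnmt3a.

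**Figure D2:**
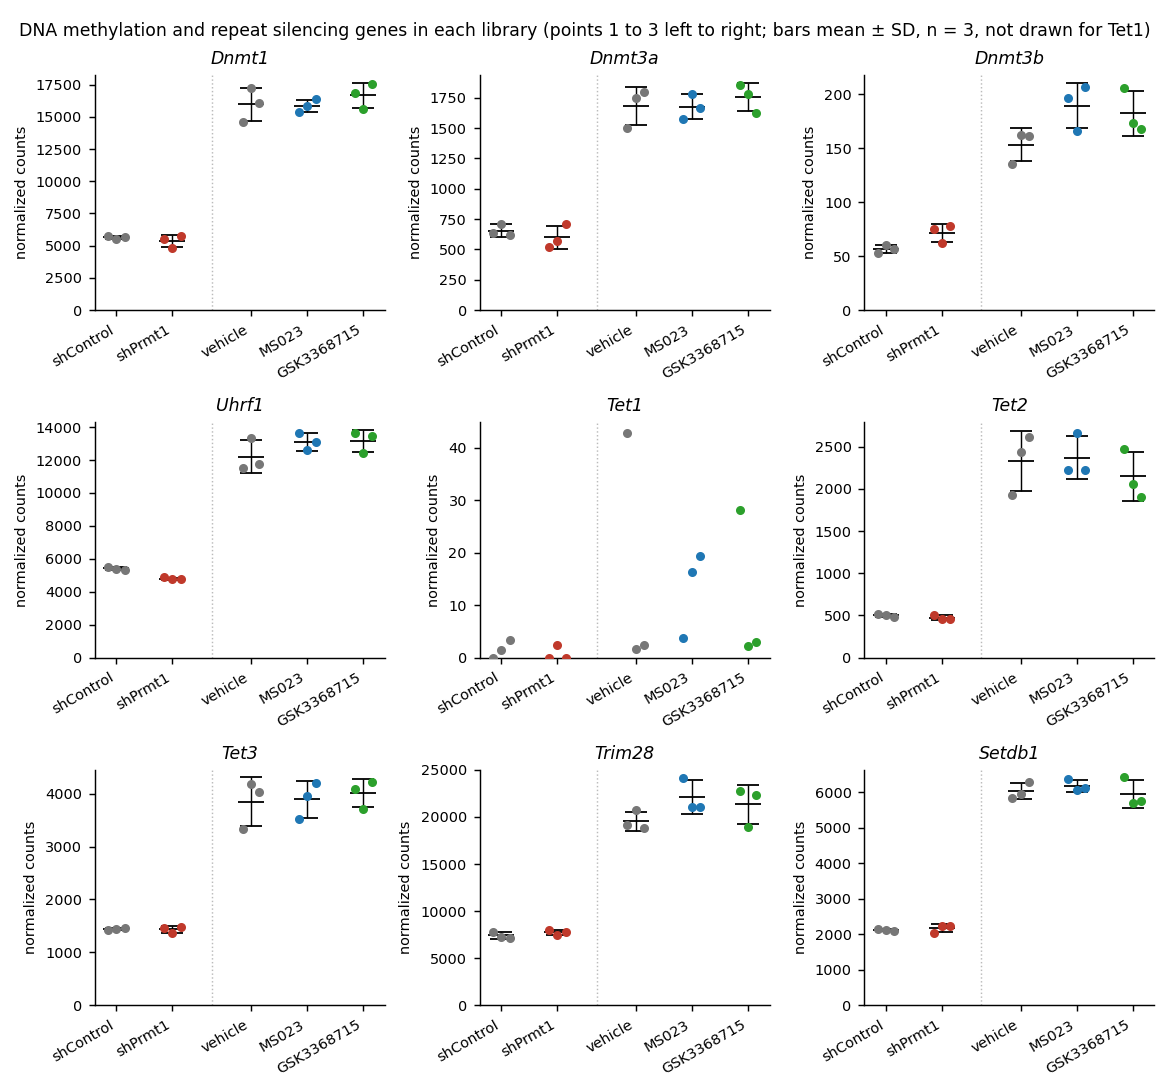
Normalized counts (y axis, from 0, a separate scale for each gene) of the 9 members in each library of the 5 groups, with bars for the mean ± SD (n = 3) where drawn; the dotted line separates the experiments, which were normalized separately. Uhrf1 in shPrmt1 and Dnmt3b in all 3 treated groups lie wholly outside the range of their controls, Trim28 does under MS023 only, and the Tet1 values of the inhibitor experiment range from 1.65 to 42.8 with high and low libraries in each group.

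Of the Tet oxidases, Tet3 and Tet2 were readily measured and Tet1 was barely detected. Tet3 (chromosome 6 from 83362373 to 83459084, minus strand) was measured at 1426, 1431 and 1461 normalized counts in shControl and 1466, 1358 and 1487 in shPrmt1, with means of 1439 ± 18.5 and 1437 ± 69.4 (SD, n = 3). Its log2 fold change of -0.0037 had an interval of -0.15 to 0.15. Under the inhibitors the log2 fold changes of Tet3 were 0.02 (-0.19 to 0.23) and 0.06 (-0.15 to 0.28), with 3327, 4184 and 4039 in vehicle, 3514, 3964 and 4204 in MS023 and 4092, 3710 and 4228 in GSK3368715, overlapping throughout. Tet2 (chromosome 3 from 133463679 to 133545139, minus strand) had 520, 501 and 483 in shControl and 505, 459 and 459 in shPrmt1 (log2 fold change -0.08, interval -0.27 to 0.11). In the inhibitor experiment Tet2 had 1932, 2438 and 2613 in vehicle, 2224, 2669 and 2220 in MS023 and 2478, 2059 and 1907 in GSK3368715, with coefficients of variation of 15.2%, 10.9% and 13.8%, and the groups overlapped. Its log2 fold changes were 0.03 (-0.25 to 0.32) and -0.11 (-0.40 to 0.17).

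Tet1 (chromosome 10 from 62804570 to 62908996, minus strand) was near the limit of detection. In the knockdown experiment it had 0, 2 and 3 reads in shControl and 0, 2 and 0 in shPrmt1, did not reach the 10 normalized counts asked for, and was not tested. In the inhibitor experiment it had 42.8, 1.65 and 2.41 normalized counts in vehicle, 3.75, 16.4 and 19.4 in MS023 and 28.2, 2.15 and 2.97 in GSK3368715. The first vehicle library, the first GSK3368715 library and the last 2 MS023 libraries were the high ones, with 15 to 37 reads each, so that high libraries occurred in every group and Tet1 passed the filter through these 4. The remaining 5 libraries had 2 to 6 reads each. For MS023 the interval of its log2 fold change was -1.84 to 3.23, and for GSK3368715 -2.57 to 2.50, so that a change could not be told from the spread between libraries. That spread did not follow depth, with 35 reads in the first vehicle library and 2 in the second, which was the deeper. The floor of 3 reads covers counting error only.

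Trim28 and Setdb1, the repeat silencing pair, were not called in any comparison. Trim28 (chromosome 7 from 12999114 to 13031035, plus strand) had 7813, 7292 and 7118 normalized counts in shControl and 8032, 7504 and 7751 in shPrmt1, a log2 fold change of 0.07 (interval -0.07 to 0.20) with overlapping groups. It had 19097, 20700 and 18824 in vehicle, 24181, 21101 and 21030 in MS023 and 22718, 18968 and 22374 in GSK3368715. The MS023 libraries all lay above vehicle, those of GSK3368715 did not, and the log2 fold changes of 0.18 (interval -0.0029 to 0.35, adjusted p = 0.13) and 0.12 (-0.05 to 0.30, adjusted p = 0.369) were not called by limma. Setdb1 (chromosome 3 from 95323525 to 95357202, minus strand) had 2161, 2126 and 2093 in shControl and 2036, 2233 and 2231 in shPrmt1, where the first library was the low one. Under the inhibitors it ranged from 5853 to 6306 in vehicle, 6058 to 6372 in MS023 and 5708 to 6425 in GSK3368715. Its log2 fold changes were 0.03 (-0.12 to 0.17) in the knockdown, 0.04 (-0.09 to 0.16) under MS023 and -0.02 (-0.15 to 0.11) under GSK3368715. It shares 75 exon bases with Cers2 on the opposite strand, which had a mean of 8737 normalized counts in shControl and 9141 in shPrmt1.

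At the matched dose and time the 2 compounds were compared directly on the 9 members, which made 9 comparisons, adjusted among all 13014 genes. No member had groups that did not overlap, beside 21.4% of all genes tested. GSK3368715 minus MS023 gave 0.07 for Dnmt1 (interval -0.08 to 0.22), 0.07 for Dnmt3a (-0.12 to 0.25), -0.06 for Dnmt3b (-0.36 to 0.25), 0.01 for Uhrf1 (-0.14 to 0.15), -0.15 for Tet2 (-0.43 to 0.14), 0.04 for Tet3 (-0.17 to 0.26), -0.05 for Trim28 (-0.23 to 0.13) and -0.06 for Setdb1 (-0.19 to 0.07) on the log2 scale. For Tet1 the interval was -3.27 to 1.80. The adjusted p-values from limma ran from 0.677 to 0.977, which does not show that the compounds act alike on these genes beyond the widths given.

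Within a group, some libraries were low or high for most members at once. The first vehicle library was the lowest of its group for 7 of the 9 members, all but Tet1 and Trim28. In GSK3368715 the first library was the highest for 7 members and the second the lowest for 6. Without the first vehicle library the log2 fold changes under MS023 of the members other than Tet1 were lower, and those of Tet2 and Tet3 became -0.10 and -0.08. No member was called with or without any library of the inhibitor experiment.

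Genes that work with the members were called in both directions, and apart from the DNA methylation list in the knockdown their shares lay near or below those of all genes. Among 33 genes of DNA methylation and its removal (reader proteins, base excision repair, CXXC domain proteins and regulators of Dnmt1), 3 were called higher and 4 lower of 30 tested in the knockdown, with MS023 4 higher and 3 lower of 31, and with GSK3368715 1 of each of 31, by limma at an adjusted p under 0.05. This was 23.3%, 22.6% and 6.45% of those tested, beside 14.7%, 27.9% and 9.64% of all genes. The medians of their log2 fold changes were -0.0035, -0.03 and -0.02, beside -0.0036, 0.0028 and 0.00042 over all genes. Among 31 partners of Trim28 and Setdb1 (HP1 proteins, other H3K9 enzymes, the HUSH complex and histone chaperones), all tested, 1 was called higher and 3 lower in the knockdown, 5 higher against 3 lower with MS023, and 3 higher against 0 lower with GSK3368715, or 12.9%, 25.8% and 9.68%, with medians of 0.07, 0.07 and 0.06. These counts moved when 1 library was left out. With each library left out in turn, those of the DNA methylation list ran from 2 to 4 higher and 1 to 5 lower in the knockdown, 2 to 4 and 1 to 3 under MS023, and 1 to 2 and 0 to 2 under GSK3368715. Those of the second list ran from 0 to 3 higher and 0 to 4 lower in the knockdown, 2 to 5 and 2 to 4 under MS023, and 2 to 3 higher with 0 lower under GSK3368715. In the knockdown, leaving out any 1 of the shControl libraries left 1 DNA methylation partner called lower and 0 partners of Trim28 and Setdb1 called higher. In GSK3368715 against MS023 0 genes of either list were called.

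**Figure D3:**
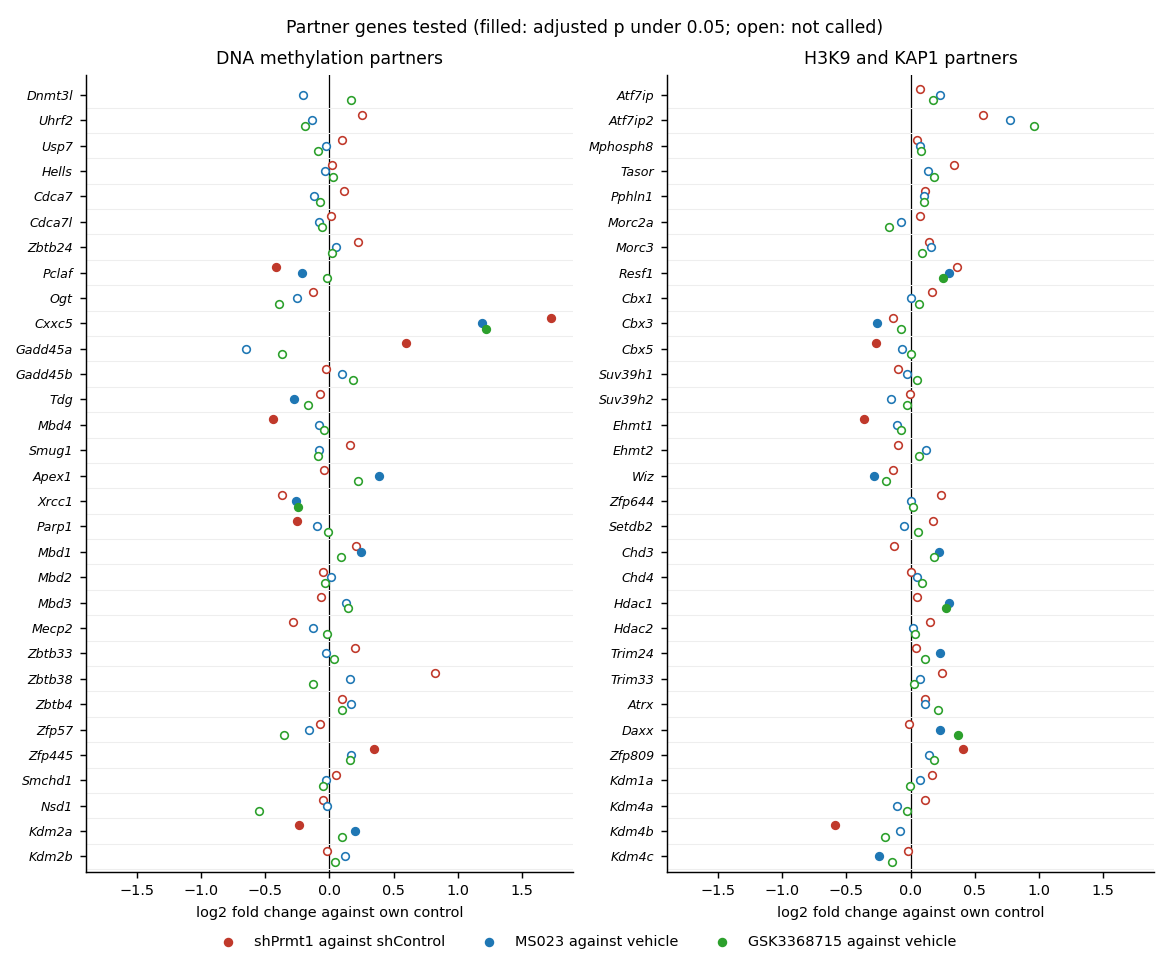
Log2 fold change against the own control (x axis) of each partner gene tested, in the knockdown, under MS023 and under GSK3368715; filled points passed an adjusted p of 0.05 with limma and open points did not. Cxxc5 stands apart on the right in all 3 comparisons (1.73, 1.19 and 1.22), and most other genes lie near 0.

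Cxxc5, a CXXC zinc finger protein that binds unmethylated CpG and is known to restrain Tet2, had the highest fold change of the partners called. It had 30.8, 31.0 and 29.9 normalized counts in shControl and 110, 109 and 92.9 in shPrmt1, and every shPrmt1 library lay above every shControl library (log2 fold change 1.73, adjusted p = 0.000441, limma). It had 147, 131 and 151 in vehicle, 312, 320 and 346 in MS023 and 344, 316 and 344 in GSK3368715. The inhibitor groups lay 2.28 and 2.33 times above vehicle in the fit, with log2 fold changes of 1.19 (adjusted p = 5.22e-05) and 1.22 (adjusted p = 0.00024). All alternatives kept these 3 calls, with log2 fold changes of 1.61 to 1.81, 1.13 to 1.23 and 1.16 to 1.26. The RNA of Tet2, as given above, was not called in any of these comparisons, and its protein was not measured.

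Among regulators of maintenance methylation, Pclaf, a PCNA-binding protein known to help bring Dnmt1 to replicating DNA, had 3685, 3926 and 3943 normalized counts in shControl and 3008, 2861 and 2783 in shPrmt1 (log2 fold change -0.42, adjusted p = 0.00374, limma). It was also called lower under MS023 (-0.21, adjusted p = 0.0463), a call that was lost in 14 of 20 alternatives, and had -0.02 under GSK3368715 (adjusted p = 0.912). Kdm2a, a CXXC domain demethylase of H3K36, had 3299, 3122 and 3093 in shControl and 2686, 2725 and 2643 in shPrmt1 (-0.24, adjusted p = 0.028), and was called higher under MS023 (0.20, adjusted p = 0.0401), a call that was lost in 9 of 20 alternatives, at an adjusted p of up to 0.125, among them leaving out any 1 of the MS023 libraries or the first or the third vehicle library. Of genes of active removal and repair, Gadd45a, which is linked to demethylation and to stress, had 280, 297 and 268 in shControl and 414, 455 and 409 in shPrmt1 (0.60, adjusted p = 0.00469). In the inhibitor experiment Gadd45a had 6146, 2819 and 4673 in vehicle, 2480, 2889 and 2923 in MS023 and 2329, 5079 and 3172 in GSK3368715. The treated groups overlapped with vehicle, and Gadd45a was not called. The thymine glycosylase Mbd4 and the nick sensor Parp1 were called lower in the knockdown (-0.44 and -0.25, adjusted p = 0.0384 and 0.0361), and Zfp445, a KRAB zinc finger protein that protects imprints, was called higher (0.35, adjusted p = 0.0144). In the knockdown the calls of Pclaf and Gadd45a held in all 16 alternatives, while those of Kdm2a, Mbd4, Parp1 and Zfp445 were each lost with libraries left out, at adjusted p of up to 0.144, 0.135, 0.136 and 0.0751. Gadd45a shares 337 exon bases with a processed transcript on the opposite strand, and Mbd4 264 with an antisense gene.

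Under MS023, the glycosylase Tdg, which excises oxidized methylcytosine, was called lower (-0.28, adjusted p = 0.0075, limma) and the abasic site nuclease Apex1 higher (0.39, adjusted p = 0.00406). Tdg has 3 near-identical copies, and the sum of the 4 genes had a log2 fold change of -0.25. Apex1 shares 877 exon bases with Pip4p1 on the opposite strand. The repair scaffold Xrcc1 was called lower under both inhibitors (-0.26 and -0.24, adjusted p = 0.0165 and 0.0476), the second call being lost in 13 of 20 alternatives, and the methyl-CpG reader Mbd1 was called higher under MS023 (0.25, adjusted p = 0.0237). The calls of Tdg and Apex1 held in all 20 alternatives, and those of Xrcc1 and Mbd1 under MS023 were lost in some, at adjusted p of up to 0.0622 and 0.0775. In the knockdown Tdg, Apex1, Xrcc1 and Mbd1 had -0.07, -0.04, -0.37 and 0.21. None was called there (adjusted p = 0.536, 0.678, 0.122 and 0.0797, limma).

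Of the partners of Trim28 and Setdb1, the knockdown had lower HP1 alpha, Cbx5, at 18184, 17625 and 17753 normalized counts in shControl and 14330, 15373 and 14816 in shPrmt1 (log2 fold change -0.27, adjusted p = 0.0128, limma), lower Ehmt1, an H3K9 methyltransferase (-0.37, adjusted p = 0.0337), and lower Kdm4b, an H3K9 demethylase (-0.59, adjusted p = 0.0208). Zfp809, the KRAB zinc finger protein that brings Trim28 to certain retroviral elements, was called higher (0.41, adjusted p = 0.024). With Cbx5, both an enzyme that places and an enzyme that removes H3K9 methylation were thus among the genes that fell. Under MS023 the deacetylase Hdac1 (0.30, adjusted p = 0.00108), the histone chaperone Daxx (0.23, adjusted p = 0.0209), the retroelement silencing factor Resf1 (0.30, adjusted p = 0.011), the NuRD subunit Chd3 (0.22, adjusted p = 0.0379) and Trim24, a relative of Trim28 (0.23, adjusted p = 0.0441) were called higher. Cbx3, HP1 gamma (-0.26, adjusted p = 0.0157), Wiz, a partner of Ehmt1 (-0.29, adjusted p = 0.0107), and the demethylase Kdm4c (-0.24, adjusted p = 0.017) were called lower. Hdac1, Daxx and Resf1 were the 3 called higher under GSK3368715 as well, at 0.28, 0.37 and 0.25 (adjusted p = 0.00536, 0.00693 and 0.0492), of which that of Resf1 was lost in 13 of 20 alternatives. Hdac1 has a near-identical copy, Gm10093, and the sum of both had a log2 fold change of 0.30 under MS023 and 0.29 under GSK3368715. In the knockdown Hdac1, Daxx and Resf1 had 0.05, -0.01 and 0.36 and were not called (adjusted p = 0.643, 0.967 and 0.0801, limma). Under MS023 the calls of Hdac1 and Wiz held in all 20 alternatives, and those of the other 6 were lost in 1 or more, at adjusted p of 0.0513 for Resf1 to 0.137 for Chd3. In the knockdown the calls of Cbx5, Ehmt1, Kdm4b and Zfp809 were lost with libraries left out, at adjusted p of up to 0.075, 0.141, 0.0929 and 0.0922. Wiz shares 2040 exon bases with Gm26858 on the opposite strand, and Cbx3 has a copy, Gm49164, that matched 32.2% of its transcript.

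**Figure D4:**
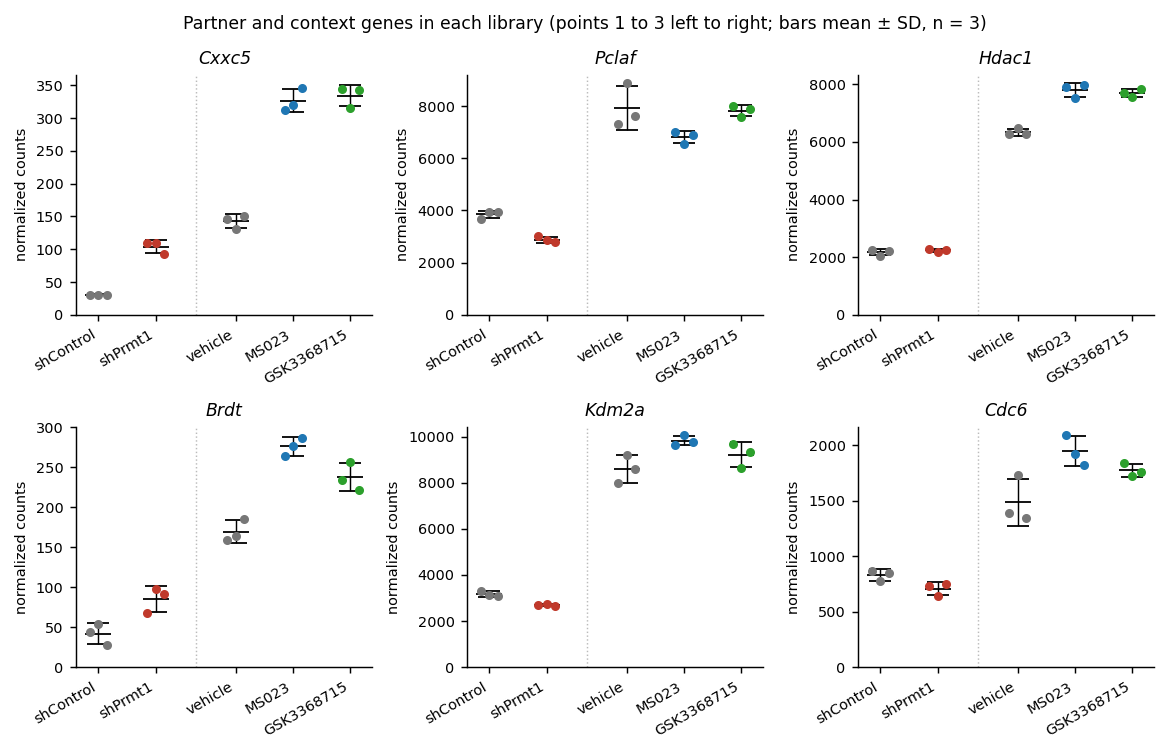
Normalized counts (y axis, from 0, a separate scale for each gene) of Cxxc5, Pclaf, Hdac1, Brdt, Kdm2a and Cdc6 in each library, with bars for the mean ± SD (n = 3). The treated libraries of Cxxc5 and Brdt lie above their controls in both experiments, whereas those of Kdm2a and Cdc6 lie below shControl in shPrmt1 and above vehicle in MS023.

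Genes that promoter methylation can keep silent were examined on the same RNA. Methylation was not measured, so that the state of these promoters in CT26 is not known. Of 23 such germline genes, 1, Brdt, passed the filter in the knockdown, and 2 (Brdt and Taf7l) in the inhibitor experiment. Brdt was not silent in the controls. Brdt, a testis bromodomain protein, had 44.0, 53.3 and 27.6 normalized counts in shControl and 67.4, 98.2 and 90.8 in shPrmt1 (log2 fold change 1.05, adjusted p = 0.0336, limma), and 159, 163 and 186 in vehicle, 264, 277 and 287 in MS023 and 234, 257 and 222 in GSK3368715 (0.70 and 0.49, adjusted p = 0.00121 and 0.021). No treated library overlapped with its controls. The same was seen for 38.0%, 44.5% and 27.7% of all genes tested in the knockdown, under MS023 and under GSK3368715. With libraries left out in turn the adjusted p of Brdt reached 0.091 in the knockdown and 0.0623 under GSK3368715, while its call under MS023 held in all 20 alternatives. Taf7l had 0.30 and 0.38 under the inhibitors (adjusted p = 0.628 and 0.612). The other 22 together had 3, 13 and 2 reads in shControl and 17, 11 and 10 in shPrmt1, and between 14 and 20 of the 22 were listed at 0 in a library. As normalized counts these sums were 2.64, 9.36 and 2.21 in shControl and 19.4, 13.3 and 10.2 in shPrmt1, so that every shPrmt1 library lay above every shControl library, the second shControl library being the nearest, and no test was made of these sums. In the inhibitor experiment the 22 had 17, 44 and 25 reads in vehicle, 73, 31 and 44 in MS023 and 31, 28 and 32 in GSK3368715, and the groups overlapped on both scales. Of 23 imprinted genes, 20 were in the tables, and 3 and 4 were tested in the knockdown and the inhibitor experiment. Igf2r, the receptor that clears Igf2, was called higher in the knockdown (0.29, adjusted p = 0.0439, reaching 0.173 with libraries left out) and Usp29 lower under MS023 (-0.86, adjusted p = 0.0334, at means of 48.7 and 27.1 normalized counts), and 0 were called under GSK3368715. The call of Usp29 was lost without the second or the third vehicle library and without the first or second MS023 library. Of all genes tested, 14.7%, 27.9% and 9.64% were called in the knockdown, under MS023 and under GSK3368715. Too few germline or imprinted genes were tested for their shares to be read against these.

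The genes whose values over the 15 libraries were most like each member, by Pearson's r of the log2 level less the mean of the controls of the experiment, are given as a description, since the libraries share controls and normalization. For Dnmt1 they were Polr1a (r = 0.94) and Smarca4 (0.92), for Uhrf1 Traf7 (0.93), for Dnmt3b Pias3 (0.89) and Olfr90 (0.88), and for Dnmt3a Emsy (0.81) and Olfr45 (0.79). For Tet3 they were Notch2 (0.91) and Atf7 (0.90), for Tet2 Spaca6 (0.75) and Srrm2 (0.68), for Trim28 Creld2 and Map2k3 (0.88 each), for Setdb1 Luc7l3 (0.86) and Tbk1 (0.85), and for Tet1, which was not tested in both experiments, Mtfmt (0.81) and Nhej1 (0.79).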

How the data were processed

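RNA was sequenced from 15 CT26 libraries. The authors ran Salmon 1.4.0 on mm10 with paired-end reads. The deposited values are a signal, normalized counts made with size factors of DESeq2 rather than raw counts, separately for the knockdown and inhibitor experiments; the transcript annotation and the DESeq2 version are not given in the sources used here. Whole reads were recovered for 100% of values (tolerance 0.01 reads), without molecular identifiers. The deposited comparison tables (log2 fold changes and p-values) were not used.

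Genes that reached 10 normalized counts in 3 or more libraries of their fit entered the test, as log2(normalized count + 1) with limma 3.58.1 (eBayes with a trend, R 4.3.3), two-sided, with Benjamini-Hochberg adjustment. The knockdown was fitted alone, and the 9 inhibitor libraries in 1 fit. On the recovered reads, edgeR 4.0.16 called 896 genes higher and 816 lower in the knockdown, 1820 and 1800 under MS023 and 669 and 573 under GSK3368715, beside 861 and 823, 1784 and 1841, and 672 and 582 with limma. DESeq2 1.42.0 was run likewise. The fits were tested on simulated data with the same relative spread set for all genes and planted changes larger than most of those given here. This does not show how well smaller changes are found.

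The members and gene lists were chosen with earlier results of these data known. Of the lists, up to 5 called genes (partner lists) or 3 (others) with the largest change in each direction and a mean of at least 50 normalized counts were named, along with partners called alike in both experiments, and the 2 genes most like each member, of which 1 for Uhrf1 is not reported here. The marker genes, Mcm3, E2f1 under the inhibitors, Usp29 and Atf7ip2 were named outside this rule, after their values were seen. Coordinates, lengths and overlaps came from GENCODE M21, copies from blastn 2.17.0 (at least 95% identity over at least 30% of a transcript), and promoters from RefSeq.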

Additional observations from a re-analysis of the deposited data

Results flagged for a closer look

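A pair of genes had every shPrmt1 library below every shControl library and every MS023 library above every vehicle library. This did not hold for GSK3368715, whose second library lay within the range of vehicle for both, at 8622 normalized counts for Kdm2a (vehicle 7984 to 9212) and 1718 for Cdc6 (vehicle up to 1729). The log2 fold change of Kdm2a was -0.2398 in the knockdown and 0.1963 under MS023, and that of Cdc6, a helicase loader, was -0.2317 in the knockdown and 0.3947 under MS023. That of Cdc6 in the knockdown was not called (adjusted p = 0.116, limma), and the calls of Kdm2a were lost with libraries left out, at an adjusted p of up to 0.144 in the knockdown and 0.125 under MS023. Groups that did not overlap, in either direction, were seen for 38.0% of all genes tested in the knockdown and for 44.5% under MS023. How many of all genes did so in opposite directions was not counted. The difference between the experiments was not tested, since they were normalized separately and differ in treatment and time.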

How the results depend on the processing

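The number of members called in the knockdown was 0, and became 1 (Uhrf1) with rescaling to the same upper quartile (adjusted p = 0.0476), with the replicate block (0.0346), with DESeq2 on recovered reads (0.0182) and without the second shPrmt1 library (0.0209); over the libraries left out in turn it ran from 0 to 1. It was 0 under every alternative in the other 3 comparisons. The deviations of same-numbered libraries had r of 0.06 to 0.12 in the knockdown and -0.10 to 0.11 in the inhibitor experiment. Differently numbered libraries were not compared, so that these values do not settle whether replicate numbers pair the samples. With the replicate block, 1346 genes were called higher and 1325 lower in the knockdown, 1578 and 1641 under MS023, 459 and 401 under GSK3368715, and 4 and 0 between the inhibitors. Without the block these numbers were 861 and 823, 1784 and 1841, 672 and 582, and 41 and 26.

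Fold changes near 0 changed sign without a call. Tet3 in the knockdown became 0.02869 with rescaling to the same total and 0.000798 with DESeq2. Under MS023 Dnmt1 became 0.02872 (total) and 0.01263 (upper quartile), Dnmt3a 0.03165 and 0.01556, and Tet1 -0.2287 (edgeR) and -0.2426 (DESeq2). Between the inhibitors Uhrf1 became -0.01389 (total) and -0.001242 (upper quartile), and Tet1 0.007217 (edgeR). With each library left out in turn, the sign changed for Tet3 (-0.02915 to 0.0366) in the knockdown; for Dnmt1 (-0.06787 to 0.05072), Dnmt3a (-0.08277 to 0.0461), Tet1 (-0.03869 to 1.984), Tet2 (-0.0958 to 0.1219) and Tet3 (-0.08205 to 0.09177) under MS023; for Dnmt3a (-0.01556 to 0.1178), Setdb1 (-0.07548 to 0.01121), Tet1 (-1.054 to 1.249), Tet3 (-0.03792 to 0.1274) and Pclaf (-0.07353 to 0.06959) under GSK3368715; and for Dnmt3b (-0.1477 to 0.007329), Tet3 (-0.02796 to 0.1014), Trim28 (-0.0985 to 0.03164) and Uhrf1 (-0.02293 to 0.04905) between the inhibitors. The cause was not tested.

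Counts of all genes called moved by over 1.5 times without a library: in the knockdown to 370 higher and 282 lower without the first shControl library, and under GSK3368715 to 323 and 263 without the third vehicle library. Rescaling to the same total moved the knockdown to 1082 higher and 666 lower. The 22 germline genes other than Brdt rest on 2 to 73 reads a library in all, and Tet1 on 0 to 37, numbers that did not follow depth for Tet1.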

Other observations

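Kdm4b lies 2575 bases beyond the end of Uhrf1 on chromosome 17, on the same strand. Both were lower in every shPrmt1 library than in every shControl library, Kdm4b at 540, 465 and 489 normalized counts in shControl and 388, 276 and 334 in shPrmt1, and Uhrf1 with the values given in the report, which were not past the threshold. Under the inhibitors neither was called, with log2 fold changes of -0.08 and -0.20 for Kdm4b and 0.11 and 0.11 for Uhrf1. Kdm4b had 2139, 2314 and 2196 normalized counts in vehicle and 1894, 1815 and 2081 in GSK3368715, all below vehicle. Under GSK3368715 such separation, in either direction, was seen for 27.7% of all genes tested. The MS023 libraries of Kdm4b, and those of Uhrf1 under both inhibitors, overlapped with vehicle. In the knockdown, groups that did not overlap were seen for 38.0% of all genes tested. This pair of neighbours was noticed after its values were seen, and no test was made of it.

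Atf7ip2, a relative of the Setdb1 cofactor Atf7ip, lay above vehicle in all libraries of both inhibitors, which share the 3 vehicle libraries. Groups that did not overlap were seen for 44.5% of all genes tested under MS023 and for 27.7% under GSK3368715. The log2 fold changes of Atf7ip2 were 0.78 and 0.96 (adjusted p = 0.0737 and 0.0668, limma), not past the threshold. In the knockdown it had 0.56 (adjusted p = 0.511), with overlapping groups. Its means there were low, at 12.6 normalized counts in shPrmt1 and 8.11 in shControl.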
